A study of Mus musculus with 16 samples.

Results

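The Serpina3 genes examined here are 9 neighbouring protease inhibitor genes of mouse chromosome 12, Serpina3a, Serpina3b, Serpina3c, Serpina3f, Serpina3g, Serpina3i, Serpina3k, Serpina3m and Serpina3n, out of 23420 genes in the count tables. They were chosen by the measured Dox response of Serpina3c, whose counts rise with doxycycline (Dox) in these cells, and the question was whether its neighbours respond as well. The response of Serpina3c to Dox is therefore how the members were chosen, and its values are given as a description without a test. The 9 genes lie between positions 104112724 and 104414334 of chromosome 12 (GRCm38.p6), a span of 302 kb.

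RNA-seq was done on J1 mouse embryonic stem (ES) cells of 129S4/SvJae origin at passage 36, collected on day 3 from wells without feeder cells in 2i/LIF medium, which keeps ES cells in the naive state. Every group, controls included, carries the same transgenes, namely dCas9-VPR, which is a Cas9 without cutting activity joined to transcription activation domains, and a guide RNA against RLTR10B2, an endogenous retrovirus LTR family, with a DsRed reporter. The 4 groups of 2 libraries are control cells without Dox or A-MYB, Dox cells (1 µg/ml Dox), A-MYB cells without Dox in which the germ cell transcription factor A-MYB was expressed, and Dox + A-MYB cells; induction was on days 1 and 2. The labels do not say whether the line is 1 clone, nor whether the wells of a group were separate cultures, so the p-values measure the spread between these libraries, which may be technical. Dox was not given to cells without dCas9-VPR in these libraries, so an effect of the drug and one of the activator cannot be told apart. In a second assay, histone H3 acetylated at lysine 27 (H3K27ac), a mark of active enhancers and promoters, was mapped in pachytene spermatocytes of C57BL/6J males aged 8 to 12 weeks, each preparation from 1 mouse, with 2 wild-type and 2 A-myb repro9/repro9 mutant libraries.

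Serpins are suicide inhibitors: a protease cuts an exposed loop of the serpin, the serpin changes shape, and the protease stays trapped. Humans have a single SERPINA3 gene, which encodes the acute phase protein alpha-1-antichymotrypsin, whereas the mouse has a cluster of Serpina3 copies that differ in the reactive loop and so in the proteases they can bind. Serpina3k and Serpina3c are known from liver and plasma, where Serpina3c was named kallikrein-binding protein. Serpina3n is an acute phase protein of liver and reactive astrocytes and inhibits granzyme B and cathepsin G. Serpina3g is an intracellular inhibitor of cysteine cathepsins that responds to interferon and NF-kappaB in leukocytes. ES cells are not known as a main source of any of them.

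Gene counts per library ran from 26995317 to 33771487, and levels are given as CPM (gene counts per 1000000 of the library size scaled by the trimmed mean of M values). The 6 ES cell markers Pou5f1, Nanog, Sox2, Zfp42, Esrrb and Tfcp2l1 summed to 5465 to 5990 CPM in the 6 libraries of the control, Dox and A-MYB groups, and to 3825 and 4095 CPM in the 2 that had Dox + A-MYB. All 6 markers were above 1 CPM. The Dox + A-MYB libraries also stood apart by having at least 1 count for 17554 and 17602 genes, against 16027 to 16512 in the other 6 libraries. Macrophage markers summed to 8.51 to 11.8 CPM, nearly all of it from Cd68 (8.47 to 11.6 CPM). Tyrobp and Lyz2 were at 0, and Ptprc and Csf1r had at most 2 and 11 counts in a group. Fewer cells of a type and less RNA per cell cannot be told apart in such bulk samples.

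The upstream sequences of Serpina3c and Serpina3n are shown first, because those promoters were the most alike of the cluster while their counts differed. RefSeq promoter windows of 300 bases (250 before and 50 after a gene start, GRCm38.p6) were found for 7 of the 9 members, in 8 windows. Serpina3k and Serpina3m had no entry. Aligned over their whole windows, Serpina3c and Serpina3n were 89.9% identical, and the other 20 pairs of members were 38.0 to 68.6% identical (median 48.7%). The parts upstream of the outermost annotated start are printed 5′ to 3′ on the gene's own strand, with capitals for the bases that differ or have no partner in the alignment of both; 174 of 193 aligned positions were identical.
Serpina3c, chr12:104153930-104154122, minus strand: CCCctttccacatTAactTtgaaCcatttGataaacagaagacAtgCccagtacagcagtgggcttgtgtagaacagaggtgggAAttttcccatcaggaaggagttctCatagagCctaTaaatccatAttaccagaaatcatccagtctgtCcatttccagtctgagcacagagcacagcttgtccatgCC
Serpina3n, chr12:104406458-104406645, plus strand: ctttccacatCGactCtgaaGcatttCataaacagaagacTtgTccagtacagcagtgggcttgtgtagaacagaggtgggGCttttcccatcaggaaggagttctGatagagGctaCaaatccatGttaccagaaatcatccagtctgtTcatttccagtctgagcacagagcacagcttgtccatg

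Within the 300-base windows, the TATA box letters TATAAA (or TTTATA on the other strand) occurred once in Serpina3c, Serpina3b and 1 of the 2 Serpina3f windows, 2 times in Serpina3a, and not in Serpina3g, Serpina3i or Serpina3n, against 13.6% of all 32851 windows with a match. The core letters bound by MYB proteins, AACNG (CNGTT on the other strand), matched 3 times in each of Serpina3c, Serpina3n and Serpina3g. They matched 5 and 4 times in the Serpina3f windows, 4 times in Serpina3i, 2 times in Serpina3b and 0 times in Serpina3a. Of all windows, 80.3% hold that short motif. The letters TTCNNNGAA of STAT sites, a palindrome, were in the windows of Serpina3f, Serpina3g and Serpina3i and not in those of Serpina3a, Serpina3b, Serpina3c or Serpina3n, against 8.30% of all windows. Over the 8 windows, 1 pair of matches of different motifs overlapped. The windows of Serpina3c, Serpina3f and Serpina3i held 0 or 1 CpG, those of Serpina3n, Serpina3g and Serpina3b 3, 4 and 5, and that of Serpina3a 11, where the median of all windows was 7. A match describes letters only and says nothing of binding.

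Serpina3c (gene ID 16625, positions 104146907 to 104153929) was silent at this depth without Dox and present in all 4 libraries with it. It had 0 counts in both control and both A-MYB libraries, which allows up to 0.0549 CPM in control and 0.0523 CPM in A-MYB cells (3 counts over the group; such floors and the intervals of count ratios cover counting error only). It had 64 and 31 counts in the Dox libraries, or 1.94 and 1.07 CPM (1.50 ± 0.617, SD, n = 2). It had 150 and 178 counts in the Dox + A-MYB libraries, or 4.38 and 5.28 CPM (4.83 ± 0.636, n = 2). The Dox and Dox + A-MYB libraries did not overlap, and all 4 lay above all 4 libraries without Dox. Summed over each group, the 95 counts of Dox cells were 27.8 times the floor of 3 counts in control, per scaled library size. The 328 counts of Dox + A-MYB cells were 92.2 times the floor in A-MYB cells. These ratios allow for counting error in the untreated groups only, and not for that of the Dox counts or for the spread between libraries. Between the Dox-treated groups, the 328 counts with A-MYB against 95 without gave a ratio of 3.16 (95% counting interval 2.50 to 4.01).

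**Figure D1:**
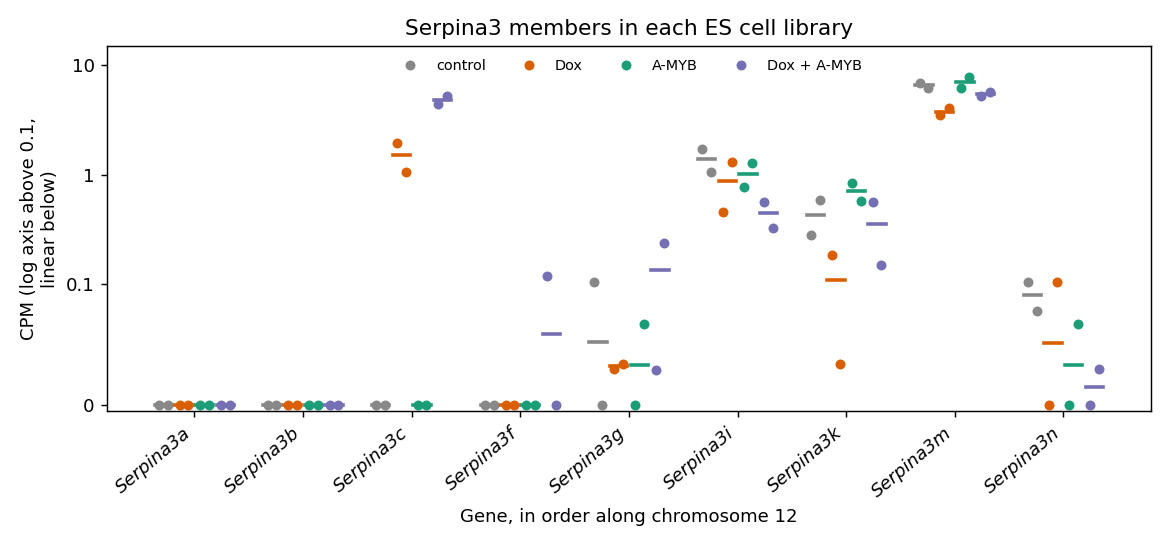
Level of each of the 9 Serpina3 genes in the 8 ES cell libraries, in CPM on an axis that is linear near 0 and logarithmic above, 1 point per library and a bar at the mean of each group of 2. Serpina3c is at 0 in the 4 libraries without Dox and between 1.07 and 5.28 CPM with it, while Serpina3i, Serpina3k and Serpina3m show no higher levels with Dox and the other 5 lie at or near 0.

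The summed hepatocyte and visceral endoderm markers were highest in Dox + A-MYB libraries, as Serpina3c was, but not every marker rose. The 8 hepatocyte markers, of a cell type that makes several Serpina3 proteins, summed to 3.74 to 5.44 CPM in control, Dox and A-MYB libraries and to 9.29 and 10.7 CPM in Dox + A-MYB libraries, 2 of them above 1 CPM in any library. Ahsg gave most of the sum in the Dox + A-MYB libraries. It had 519 counts in that group, against 161, 226 and 199 in control, Dox and A-MYB cells. Trf had 106 counts against 93, 71 and 40. Apoa1, Apoa2 and Ttr had 27, 12 and 12 in Dox + A-MYB cells, against 6, 3 and 0 in control. Fgb and Serpina1a had at most 1 count in a group. Alb, which encodes albumin, had 4 counts in the Dox + A-MYB group and 0 in the other 3. The 7 visceral endoderm markers summed to 5.64 to 7.46 CPM in control, Dox and A-MYB libraries and to 11.1 and 12.5 CPM in Dox + A-MYB libraries. Of them 3 were above 1 CPM and none was at 0 throughout. Counts of Gata4, Amn, Cubn and Sox17 were 511, 134, 92 and 43 in Dox + A-MYB cells, against 270, 17, 2 and 21 in control. Those of Gata6, Foxa2 and Afp were 15, 5 and 2, against 17, 6 and 0. Between control and Dox cells, where Serpina3c also went from 0 to 1.50 CPM, the hepatocyte sums were 4.47 to 5.24 against 5.00 to 5.05 CPM and the visceral endoderm sums 5.64 to 6.60 against 6.97 to 7.46 CPM. The sum of the 8 feeder markers stayed at 3.36 to 6.44 CPM, but single ones moved. Over each group's libraries, Col3a1 had 46 counts in Dox + A-MYB cells and 1, 0 and 4 in the control, Dox and A-MYB groups. Pdgfra had 96 against 23, 20 and 31. Col1a1 had 90 counts in control and 38, 31 and 27 in the Dox, A-MYB and Dox + A-MYB groups. It was the 1 of 4 feeder markers tested that was called for Dox without A-MYB (log2 -1.41) and for A-MYB without Dox (log2 -1.59). In those contrasts 32.2% and 34.7% of all genes tested were called. For Dox with A-MYB, 2 of the 4 feeder markers tested, Col3a1 and Pdgfra, were called higher and 1, Thy1, lower. For Dox with A-MYB, 28.5% of all genes tested were called higher and 30.4% lower, 58.9% in all. The part of these markers in the levels of Serpina3c and its neighbours was not tested.

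The genes nearest to Serpina3c gave no or hardly any counts in any group. Serpina3b (gene ID 271047, 104127986 to 104139546), whose nearest edge is 14.3 kb from the Serpina3c start, had 0 counts in all 8 libraries. Serpina3a (gene ID 74069, 104112724 to 104121896), 32.0 kb away on the same side, also had 0 counts in all 8. Over the 241397761 gene counts of all libraries this allows up to 0.0124 CPM for each. On the other side, Serpina3f (gene ID 238393, 104214544 to 104221129), 60.7 kb away, had 4 counts in Dox + A-MYB replicate 1 and 0 in the other 7 libraries. The 4 counts come from 1 library, and against the floor of the A-MYB group they gave a ratio of 1.12. That ratio leaves out the counting error of the 4 counts, so a rise was not shown. These 3 neighbours were thus at 0 in both libraries treated with Dox alone, which allows up to 0.0483 CPM for each.

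Serpina3g and Serpina3n were sparse in every group. Serpina3g (gene ID 20715, 104236147 to 104241939, 82.3 kb away), the intracellular cathepsin inhibitor, had 3 and 0 counts in control, 1 and 1 in Dox, 0 and 2 in A-MYB, and 1 and 8 in Dox + A-MYB libraries. The single library with 8 counts sets its highest group. With A-MYB, 9 counts with Dox against 2 without gave a ratio of 3.80 with a counting interval of 0.786 to 36.1, which includes no difference. Without A-MYB, 2 counts against 3 gave 0.586 (0.0490 to 5.12).

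Serpina3n (gene ID 20716, 104406646 to 104414334, 253 kb away), whose promoter letters are close to those of Serpina3c, had 3 and 2 counts in control, 0 and 3 in Dox, 0 and 2 in A-MYB, and 0 and 1 in Dox + A-MYB libraries. The Dox libraries overlapped with control, and the Dox + A-MYB libraries with A-MYB, while both control libraries lay above both A-MYB and both Dox + A-MYB libraries, on at most 3 counts each. The ratio of Dox to no Dox was 0.528 (0.0819 to 2.71) without A-MYB and 0.422 (0.00715 to 8.10) with it. A change of Serpina3n with Dox was not detectable at this depth, and a ratio of the size of those of Serpina3c to the floor lies outside both intervals.

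Of the 9 members, 4 passed the filter on low counts and were fitted with the other genes, 14664 in all. Serpina3c was 1 of them, and it passed through the Dox libraries alone. The other 3 are Serpina3i, Serpina3k and Serpina3m, which were present without Dox.

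Serpina3m (gene ID 20717, 104387157 to 104394259), 233 kb from the Serpina3c start, had 198 and 160 counts in the control libraries. Its levels were 6.86 and 6.22 CPM in control, 3.48 and 4.06 in Dox, 6.17 and 7.75 in A-MYB, and 5.26 and 5.67 CPM in Dox + A-MYB libraries. Both Dox libraries lay below all 6 others, and both Dox + A-MYB libraries below both A-MYB libraries. The Dox response without A-MYB was a log2 fold change of -0.80 (SE 0.19, 95% interval -1.19 to -0.40), a level 0.575 times that of control, and with A-MYB it was -0.35 (SE 0.18, -0.73 to 0.02).

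Serpina3i (gene ID 628900, 104263045 to 104269509), 109 kb away, had levels of 1.70 and 1.05 CPM in control, 0.454 and 1.31 in Dox, 0.767 and 1.27 in A-MYB, and 0.555 and 0.326 CPM in Dox + A-MYB libraries. Control and Dox libraries overlapped, and both Dox + A-MYB libraries lay below both A-MYB libraries. The Dox response was a log2 of -0.66 (SE 0.51, 95% interval -1.71 to 0.38) without A-MYB and -1.20 (SE 0.55, -2.34 to -0.07) with it. The first value was -0.08 without Dox replicate 1 and -1.62 without Dox replicate 2, and leaving out any 1 library gave -1.64 to -0.80 for the second.

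Serpina3k (gene ID 20714, 104338486 to 104345739), 185 kb away, is a plasma serpin also called contrapsin. Its levels were 0.277 and 0.583 CPM in control libraries, 0.182 and 0.0344 CPM in Dox, 0.840 and 0.568 CPM in A-MYB, and 0.555 and 0.148 CPM in Dox + A-MYB libraries, on 1 to 23 counts a library. Both Dox libraries lay below both control libraries, and both Dox + A-MYB libraries below both A-MYB libraries. Its log2 response to Dox was -1.89 (SE 0.87, 95% interval -3.68 to -0.10) without A-MYB and -0.98 (SE 0.68, -2.38 to 0.41) with it. The first value was -3.48 without Dox replicate 1 and -1.23 without Dox replicate 2, and the second was -2.22 without Dox + A-MYB replicate 1 and -0.35 without Dox + A-MYB replicate 2.

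All 3 fitted members other than Serpina3c thus had lower fitted levels with Dox in both settings. This sign was the same when DESeq2 size factors or total counts were used for scaling. With edgeR's quasi-likelihood test, 0 of the 3 were called higher by Dox without A-MYB and 1, Serpina3m, was called lower, where 17.9% of all genes tested were called higher and 14.3% lower, 32.2% in all. With A-MYB, 0 were called higher and 0 lower, where 28.5% and 30.4% of all genes were, 58.9% in all. At an unadjusted p under 0.05, 0 were higher in either setting, and 2 and 1 were lower without and with A-MYB; DESeq2 called 0 higher in either, and 1 and 0 lower. These contrasts are those behind the choice of members, so the counts are a description. Each Dox interval of Serpina3i, Serpina3k and Serpina3m ended at or below a log2 of 0.41.

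**Figure D2:**
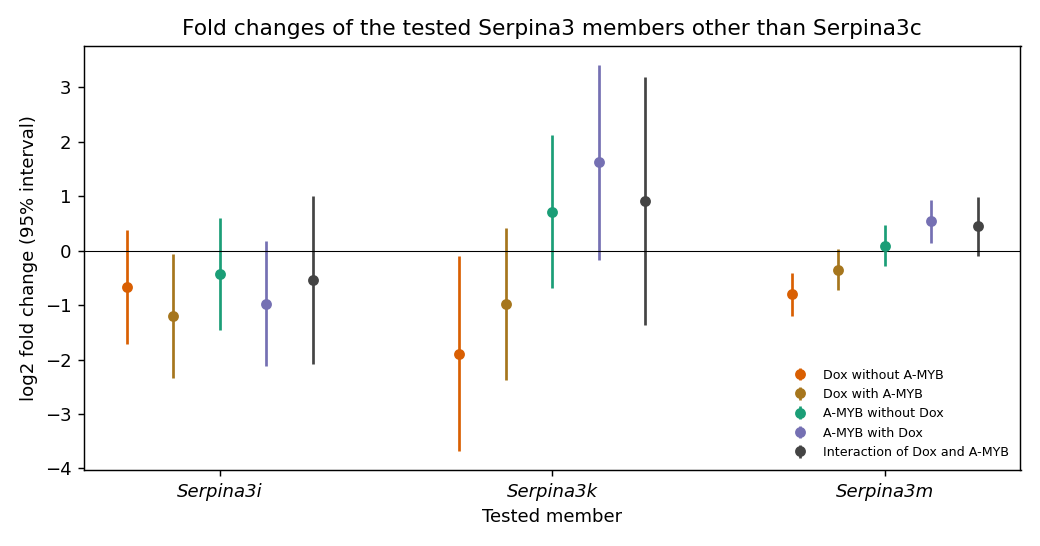
Log2 fold changes of Serpina3i, Serpina3k and Serpina3m in the Dox contrasts, the A-MYB contrasts and the interaction (Dox response with A-MYB minus that without), with 95% intervals from edgeR. All 6 Dox values lie below 0, and the A-MYB response of Serpina3m in Dox-treated cells (0.54) lies above it.

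The 8 members other than Serpina3c together summed to 9.04 and 7.92 CPM in control, 4.15 and 5.53 in Dox, 7.78 and 9.72 in A-MYB, and 6.51 and 6.41 CPM in Dox + A-MYB libraries. Both Dox libraries were below both control libraries, and both Dox + A-MYB libraries below both A-MYB libraries. Serpina3m gave most of the counts in each library. Reads that aligned to more than 1 place, 6.62 to 7.25% of the reads of a library, stand apart in the files and are in no gene count. Counts of such similar copies are uncertain for that reason, those of Serpina3c and Serpina3n included.

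The A-MYB contrasts ask whether A-MYB changes the neighbours, and neither contrast chose them; they share libraries with the Dox contrasts. Without Dox, Serpina3c stayed at 0 in both A-MYB libraries. None of Serpina3i, Serpina3k and Serpina3m passed edgeR's test without Dox, where 34.7% of all genes did (19.5% higher and 15.2% lower); 0 were at an unadjusted p under 0.05 and DESeq2 called 0. The A-MYB response of Serpina3m without Dox was a log2 of 0.09 (SE 0.18, 95% interval -0.29 to 0.47, edgeR adjusted p = 0.742). Those of Serpina3i and Serpina3k were -0.43 (SE 0.50, edgeR adjusted p = 0.549) and 0.72 (SE 0.68, edgeR adjusted p = 0.452).

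In Dox-treated cells, Serpina3m rose with A-MYB, from 3.77 ± 0.405 to 5.46 ± 0.289 CPM (n = 2 each), a log2 fold change of 0.54 (SE 0.19, 95% interval 0.14 to 0.93, edgeR adjusted p = 0.0199), or 1.45-fold. Both Dox + A-MYB libraries lay above both Dox libraries, and 55.2% of all genes were called in this contrast, 26.8% higher and 28.4% lower. The call was lost without Dox replicate 1 (log2 0.42, edgeR adjusted p = 0.164) and without Dox + A-MYB replicate 2 (log2 0.47, edgeR adjusted p = 0.0958). Serpina3k had a log2 of 1.62 (SE 0.87, edgeR adjusted p = 0.116), and it passed without Dox + A-MYB replicate 2 (log2 2.26, edgeR adjusted p = 0.0451). Serpina3i had a log2 of -0.97 (SE 0.56, edgeR adjusted p = 0.143), and it passed as lower without Dox replicate 1 (log2 -1.57, edgeR adjusted p = 0.0311). The ES, hepatocyte and visceral endoderm marker sums and the feeder markers Col3a1, Pdgfra and Thy1 differ between these groups. Their part in the change of Serpina3m was not tested.

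The interaction asks whether the Dox response of a neighbour differs with and without A-MYB. It passed for none of the 3 with edgeR, where 40.9% of all genes passed (16.4% higher and 24.5% lower); 0 were at an unadjusted p under 0.05 and DESeq2 called 0. It was a log2 of 0.45 for Serpina3m (SE 0.27, 95% interval -0.10 to 0.99, edgeR adjusted p = 0.187), -0.54 for Serpina3i (SE 0.75, edgeR adjusted p = 0.599) and 0.91 for Serpina3k (SE 1.11, edgeR adjusted p = 0.547). A difference between the Dox responses of Serpina3m with and without A-MYB was therefore not shown.

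Serpina3h, a transcribed pseudogene of the cluster (104247896 to 104254405) that is not among the 9 members, lies between Serpina3g and Serpina3i. Its levels were 0.727 and 1.4 CPM in control, 0.545 and 0.344 in Dox, 1.28 and 0.701 in A-MYB, and 1.14 and 1.36 CPM in Dox + A-MYB libraries. Both Dox libraries lay below the other 6. Its A-MYB response in Dox-treated cells was a log2 of 1.47 (SE 0.51, edgeR adjusted p = 0.0161), lost without Dox replicate 2 (log2 1.19, edgeR adjusted p = 0.119) and without Dox + A-MYB replicate 2 (log2 1.33, edgeR adjusted p = 0.0793). Serpina3j, a further gene of the cluster outside the list, had 0 counts in all 8 libraries.

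Besides the members, 41 further genes of the tables lie in the cluster or within 1 Mb of its bounds. Serpina3h and Serpina3j, inside the cluster, are among them. Of the 41, 27 had a count and 15 were tested, Serpina3h included. Without A-MYB, 6 of the 15 were called, where 32.2% of all genes were: Dicer1, which encodes the enzyme that cuts microRNA precursors, was called higher, and Gsc, Clmn, Glrx5, Tcl1 and 2810011L19Rik were called lower (median log2 of the 15 -0.37, of all genes 0.03). With A-MYB, 9 of the 15 were called, where 58.9% of all genes were: Ppp4r4, Syne3 and Snhg10 higher and Ddx24, Gsc, Dicer1, Clmn, Tcl1 and 2810011L19Rik lower (median 0.07, of all genes 0.01). Gsc, the homeobox gene goosecoid and the nearest tested gene past Serpina3n, had a mean level of 3.69 ± 0.766 CPM in control and 1.91 ± 0.0799 CPM in Dox cells, and of 2.06 ± 0.698 CPM with A-MYB alone and 0.985 ± 0.218 CPM with Dox + A-MYB (n = 2 each). Ppp4r4, a regulatory subunit of protein phosphatase 4 and the nearest tested gene on the other side, 540 kb from Serpina3c, stood at 1.44, 1.26, 2.42 and 7.31 CPM in the same order.

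**Figure D3:**
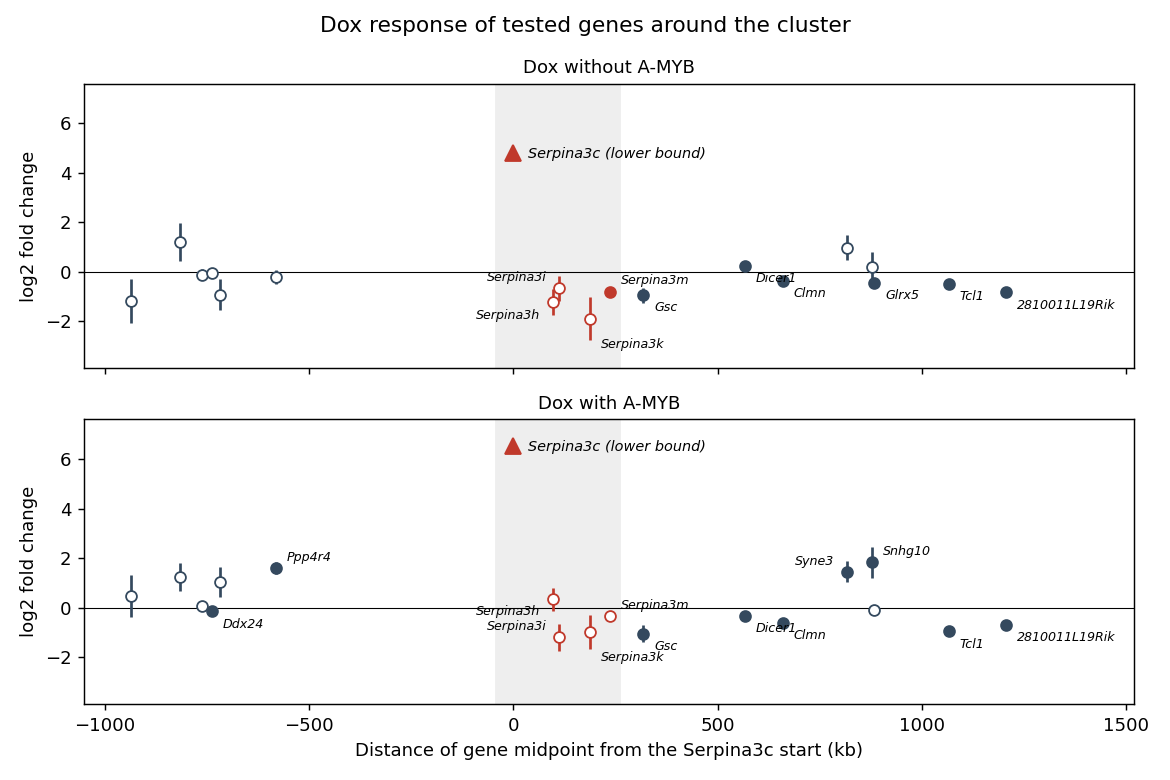
Log2 fold change with Dox of the tested genes around the cluster, against the distance of each gene's midpoint from the Serpina3c start in kb, without A-MYB above and with A-MYB below; red points are Serpina3 genes, the grey band is the cluster, bars are standard errors, filled points were called by edgeR and open points were not. The triangle of Serpina3c, marked as a lower bound, is its observed level over the floor (27.8-fold and 92.2-fold), without the error of its Dox counts. The Serpina3 genes to its right lie below or near 0.

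Other clade A serpins, the subfamily of alpha-1-antitrypsin, were nearly absent. Of 17 listed, 16 were in the tables and 1, Serpina3h, was tested. Of the 14 besides Serpina3h and Serpina3j, 6 had 0 counts in every library and the other 8 reached at most 11 counts in a library. That highest count was of Serpina7, which encodes thyroxine-binding globulin, on 0 counts in the control and A-MYB libraries, 4 and 1 in Dox, and 5 and 11 in Dox + A-MYB libraries. It was singled out after its counts were seen.

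The tested genes outside the members were ranked by how closely their levels followed Serpina3c, which was itself chosen for its Dox response. Over the 8 libraries, the 5 tested genes outside the members with the highest Pearson correlation of log2 CPM to Serpina3c were Slc13a3 (0.997), Cdh24 (0.996), Megf6 (0.996), Agpat9 (0.992) and Sytl4 (0.989), on chromosomes 2, 14, 4 and X, with Agpat9 not placed by the annotation used. Slc13a3, a dicarboxylate transporter, was at 0 without Dox and at 4.59 ± 0.319 CPM in Dox and 18.5 ± 2.07 CPM in Dox + A-MYB cells (n = 2 each). Cdh24, a cadherin, went from 4.85 CPM in control to 32.3 CPM in Dox cells, and from 4.71 CPM in A-MYB cells to 69.0 CPM with Dox added. The correlation with Serpina3c was -0.747 for Serpina3i, -0.533 for Serpina3k, -0.664 for Serpina3m and -0.0955 for Serpina3h. These values are descriptions over libraries that share treatment and scaling.

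Serpins of other clades and the proteases tied to the family were counted against the share of all genes called, which was 32.2% for Dox alone, 58.9% for Dox with A-MYB and 55.2% for A-MYB with Dox. Of 25 serpins of other clades, 13 were tested. With Dox alone, 3 were called, Serpinb6c, Serpinb1a and Serpinb6a, and they were lower (median log2 of the 13 -0.28, of all genes 0.03). In Dox-treated cells, 4 rose and 5 fell with A-MYB. Serpine2, an inhibitor of thrombin and plasminogen activators, rose by a log2 of 1.79 (SE 0.20, edgeR adjusted p = 8.56e-08), and Serpinb1a, an inhibitor of neutrophil proteases, changed by -1.46 (SE 0.12, edgeR adjusted p = 2.07e-10). Of 18 proteases listed for the family, 6 were tested, and 4 were called lower with Dox alone. Among the 4 were the cathepsins Ctsb and Ctsl (log2 -0.49 and -0.43) and the kallikrein Klk1 (log2 -0.96). The median was -0.50. Whether each listed protease is a target of a Serpina3 protein was not tested. With A-MYB, Dox left 1 called higher, Mmp9 (log2 1.27), and 4 lower.

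Genes of the signals that are known to induce Serpina3 genes in other tissues were counted as well. Of 24 acute phase and STAT3 target genes 18 were tested. With Dox alone 13 did not pass and 5 were called lower, A2m (log2 -1.10), which encodes alpha-2-macroglobulin, and Socs3 (log2 -0.50), a STAT3 feedback inhibitor, among them, against 32.2% of all genes called in either direction. With A-MYB, Dox left 3 called higher and 7 lower. Of 24 NF-kappaB and interferon-gamma response genes, signals to which Serpina3g is known to respond, 17 were tested. With Dox alone 11 did not pass, 1 was called higher and 5 lower. For Dox with A-MYB, 8 were called higher and 2 lower, where 58.9% of all genes were called. Tap1 (log2 2.1) and Tnfaip3 (log2 1.12) were among the 8 called higher. In the Dox + A-MYB libraries Serpina3g had 1 and 8 counts.

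H3K27ac in spermatocytes gives a second view of the locus, in cells where A-MYB is a master regulator of pachytene genes. The authors' peak lists hold 29042 and 24130 peaks in the wild-type and 22397 and 21269 in the mutant libraries, with median folds over background of 4.90, 4.91, 4.58 and 4.60; peak folds and tags are the authors' values. Within the cluster bounds plus 10 kb there were 3 peaks in each wild-type library and 1 in each mutant library; this difference was not tested. None lay at Serpina3c: the nearest peak to its start was 47.6 kb away in both wild-type libraries and 89.7 and 90.0 kb in the mutant libraries.

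The peak shared by all 4 libraries lay just past Serpina3g, 1.62 kb from its end in wild-type replicate 1 (chromosome 12, 104243554 to 104244472, mm10), between that gene and Serpina3h. Its fold was 4.70 and 5.94 in the wild-type and 5.82 and 5.35 in the mutant libraries, so the folds overlapped. A peak between Serpina3e-ps and Serpina3f was listed in both wild-type libraries, at 104201516 to 104203092 with 105 tags and a fold of 4.24 in replicate 1, and at 104201517 to 104203121 with 80 tags and a fold of 3.51 in replicate 2. A peak between Serpina3i and Serpina3j was likewise listed in both wild-type libraries, at 104294732 to 104295673 with a fold of 5.27 and at 104294764 to 104295582 with a fold of 7.06. Neither of these was listed in a mutant library. The wild-type lists are longer, and a peak that is not listed need not be without signal.

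**Figure D4:**
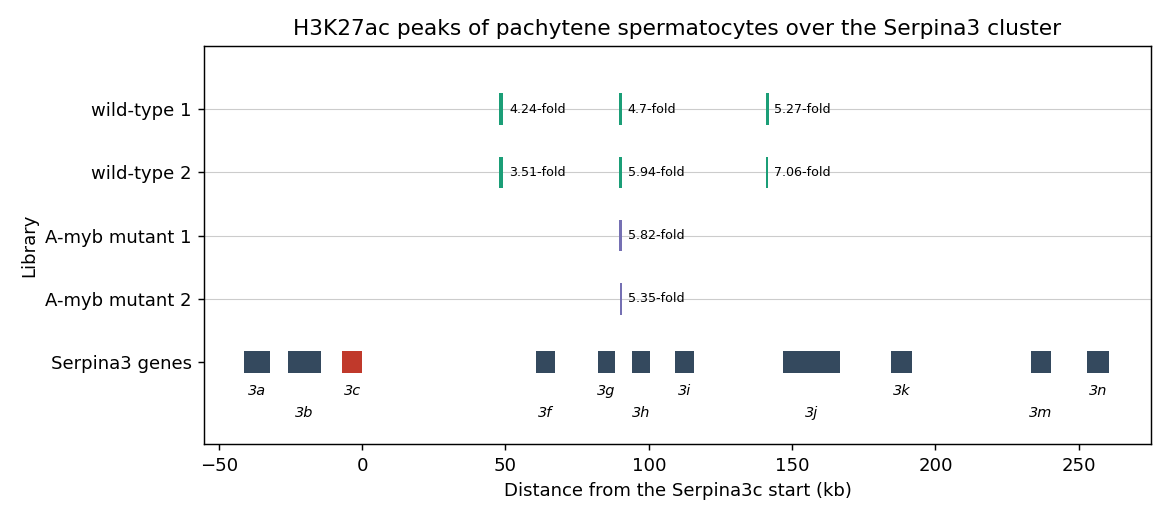
Position of the authors' H3K27ac peaks in the Serpina3 cluster, as distance from the Serpina3c start in kb, in 1 row for each of the 2 wild-type and 2 A-myb mutant spermatocyte libraries, with each peak's fold over background printed beside it and the genes drawn to scale in the bottom row. The peak past Serpina3g is in all 4 libraries, and those before Serpina3f and before Serpina3j are in the wild-type libraries only.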

How the data were processed

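For the ES cells, the authors deposited unnormalized counts of reads per gene symbol, with reads assigned to no gene on special lines (17.2 to 19.5% of reads) that were left out. Per the submitters' processing notes, bcl2fastq 2.20.0, HISAT2 2.1.0, HTSeq, Bowtie2 2.3.3.1, MACS 1.4.2 and the build mm10 were used; settings are not given in the sources used here. The deposited peak lists give tags as counts, a score (used only as the authors' value, in no test) and fold enrichment as a ratio, called per library. The 4 input libraries were not analysed here.

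Of 23420 genes, 18917 had a count and 14664 passed filterByExpr. Counts were fitted in 1 model of 4 group means over 8 libraries, with 4 residual degrees of freedom, by edgeR 4.0.16 (R 4.3.3; TMM scaling, robust glmQLFit, two-sided glmQLFTest). Adjusted p-values are Benjamini-Hochberg over the 14664 genes, and a gene under 0.05 was called. SE is the absolute log2 fold change over the square root of F. Replicates differed by more than sampling noise (chi-square per degree of freedom 5.41 to 13.7; biological coefficient of variation 0.0631). Groups with 0 counts were set to a floor of 3 counts over the group.

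The members and gene lists were chosen with earlier results of these data known. Named are the 9 members, the 5 genes most correlated with Serpina3c, genes within 1 Mb called in a Dox contrast, the nearest tested genes, and up to 3 genes per list by smallest p. Gene positions and promoters are from RefSeq (GRCm38.p6). Alternatives were DESeq2 1.42.0, its size factors, total counts, no filter, a replicate block, each library left out and stricter peaks.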

Additional observations from a re-analysis of the deposited data

How the results depend on the processing

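For Dox without A-MYB, 1 member, Serpina3m, was called lower under every alternative run; counts of higher calls in the Dox contrasts hold only Serpina3c, which chose the members, and say nothing of stability. Members called lower for Dox with A-MYB were 1, Serpina3i, instead of 0 when no filter on low counts was used, and 0 to 1 over the fits that left out 1 library (1 without Dox replicate 1 and without A-MYB replicate 1). For A-MYB with Dox, leaving out a library gave 1 to 2 higher (Serpina3c included) and 0 to 1 lower. A group left with 1 library was assumed to vary like the others. All genes called ran from 2669 to 5221 for Dox without A-MYB and from 3200 to 5676 for A-MYB without Dox. With the replicate block, which gave the same member counts in all 5 contrasts, Serpina3m had log2 values of -0.80 for Dox without A-MYB and 0.54 for A-MYB with Dox (edgeR adjusted p = 0.0186), and 4958 genes were called for Dox without A-MYB. The numbers did not pair the libraries (correlation of replicate differences -0.0269 to 0.0843 over 6 pairs of groups). The uncalled interaction values of Serpina3i and Serpina3k changed sign as single libraries were left out (-1.14 to 0.41 and -0.30 to 2.48). Total counts moved the median of all genes to 0.22 for Dox with A-MYB, 0.20 for A-MYB with Dox and 0.16 for the interaction. At a peak fold of at least 10, each of the 4 H3K27ac libraries had 0 peaks in the cluster. The cause of these changes was not tested. Depth limits Serpina3a, Serpina3b, Serpina3f, Serpina3g and Serpina3n, which had 0 to 8 counts a library.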
